A study of Caenorhabditis elegans with 12 samples.

Results

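Nematode microRNA hairpins whose names carry a number of 1000 or more are the later additions to the hairpin catalogue of Caenorhabditis elegans, mostly found by deep sequencing and mostly without a known function. They were taken from a table of read counts for 250 hairpins by name alone: every row named mir- with a number from 1000 upwards, except mir-1018, mir-4807 and the names that begin with mir-1829, mir-2208 or mir-2209. That gave 111 of the 250 rows, and 139 rows remained as the other hairpins. The rows mir-5592-1 and mir-5592-2 held nearly the same counts, never more than 7.94% apart in one library, and were read as 1 measurement, so the 111 rows stand for 110 measurements. The name was the only criterion: mir-1019, the first hairpin inside it, had 11 reads, and mir-800, the last one outside it, had 1854.

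The 12 small RNA libraries came from whole hermaphrodites of N2, the wild-type laboratory strain. They fall into 4 groups of 3: day 5 after DMSO, day 5 after rotenone, day 15 after DMSO and day 15 after rotenone. The DMSO groups received the solvent at 0.1%, and the rotenone groups received the mitochondrial complex I inhibitor rotenone at 100 nM, with an exposure of 24 hours from the L4 larval stage. The labels do not say from which event the days count, nor whether the 3 libraries of a group came from separate cultures, so p-values here speak of the spread among libraries that may be technical replicates.

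A microRNA is cut from the hairpin of a longer transcript by the Drosha complex and then by Dicer, and the mature strand guides an Argonaute protein to matching messenger RNAs. A hairpin can have its own promoter, lie in a run of hairpins on one transcript, or sit in an intron of a protein-coding gene. A mirtron is a hairpin that fills a whole short intron, so that splicing takes the place of the Drosha cut. The counts are per hairpin and do not tell its arms apart, and the counting rule is not given. No hairpin sequence is printed here.

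Libraries held 8845726 to 11045174 reads at day 5 and 4215830 to 5989717 at day 15. Levels are given as CPM, the count scaled to a common library size, by TMM for libraries and groups and by the plain read total for means over all libraries. They are shares, not amounts per worm. A count of 3, the limit that a count of 0 allows, was worth 0.272 to 0.712 CPM, which covers counting error only. By the lane tags in the labels, both lanes held both treatments at each age in equal numbers, but lane L006 held more of the day 5 libraries (4 of 6) than of the day 15 libraries (2 of 6). Fits within a lane thus had a single library per treatment for day 5 in L007 and for day 15 in L006. Values within lanes are given for size and sign alone. The miR-35 family, which marks oocytes and embryos, held 8.16 to 9.35% of the reads in day 5 DMSO, 10.2 to 10.6% in day 5 rotenone and 15.6 to 17.2% at day 15, and whole worms do not allow fewer cells of a type to be told from less RNA per cell.

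Nearly all of these hairpins were detected, at levels far below those of the other hairpins. A read was found for 107 of the 111 rows, and 65 had a read in all 12 libraries, against 127 of the 139 other hairpins. No library held a read of mir-4927, mir-4930, mir-8187 or mir-8191. The median over the 110 measurements was 0.953 CPM, against 257 CPM over the other hairpins. Together the 111 rows took 133610 of 89537484 reads, or 0.149%, and the 5 highest rows held 71.9% of these.

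By mean level, 4 measurements reached 100 CPM, 14 lay between 10 and 100 CPM, 36 between 1 and 10 CPM and 56 below 1 CPM. Of the other hairpins, 90 reached 100 CPM. The most abundant later hairpin, mir-1022, ranked only 70th of the 250 at 288 CPM. It was followed by mir-5592-1 at 275 CPM, mir-1820 at 124 CPM, mir-4813 at 121 CPM and mir-1832a at 35.8 CPM, which was the 102nd of the table.

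**Figure D1:**
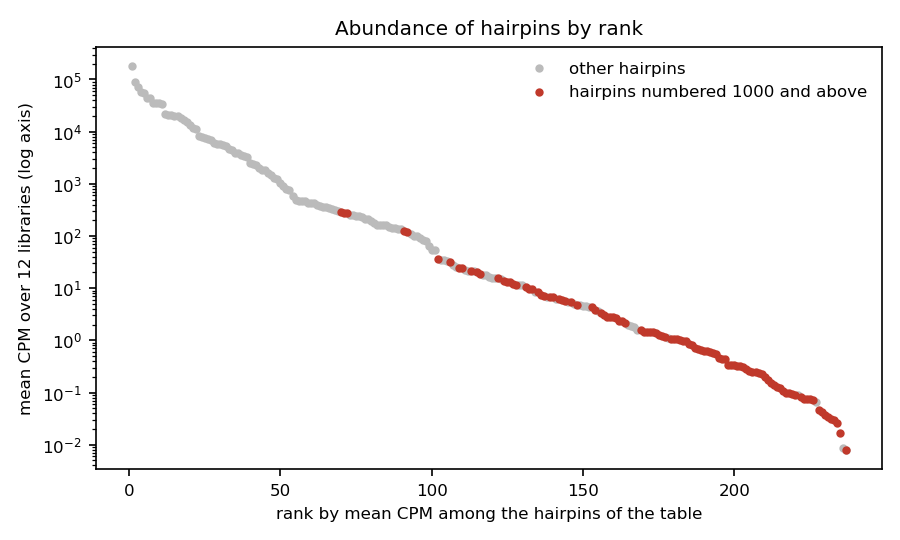
Mean CPM of each hairpin (log axis) against its rank among the 250, with the hairpins numbered 1000 and above in red and the others in grey; hairpins with no read are not drawn. The first red point is mir-1022 at 288 CPM, and red points make up most of the ranks below 1 CPM.

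The number detected depended on depth. With at least 1 read, 91 ± 2 rows were seen per library in day 5 DMSO (SD, n = 3), 95.3 ± 2.31 in day 5 rotenone, 83.3 ± 2.08 in day 15 DMSO and 86.3 ± 1.15 in day 15 rotenone. At the lowest library total of 4215830 reads, the numbers expected were 82.5 ± 0.650, 86.0 ± 1.37, 80.2 ± 0.637 and 84.9 ± 1.8 in the same order. The gap between the ages was thus smaller at equal depth, and at either age the rotenone libraries did not overlap those of DMSO: 85.0 to 87.5 rows against 82.0 to 83.2 at day 5, and 83.7 to 87.0 against 79.5 to 80.7 at day 15. This held at equal depth for a threshold of 1 read, and no count of this kind is given here for the other hairpins. At the depth sequenced the day 15 libraries met at 85 rows (81 to 85 in DMSO and 85 to 87 in rotenone). With at least 3 reads, at the depth sequenced, DMSO and rotenone overlapped at day 5 (76 to 80 and 76 to 84 rows) and at day 15 (61 to 66 and 60 to 68). With at least 10 reads the day 15 means stood in the other order, at 44.7 rows in DMSO and 41 in rotenone.

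The share of reads taken by these hairpins differed little between groups. It was 0.149 ± 0.00516% in day 5 DMSO, 0.145 ± 0.00185% in day 5 rotenone, 0.155 ± 0.00489% in day 15 DMSO and 0.152 ± 0.00561% in day 15 rotenone (SD, n = 3). Libraries of DMSO and rotenone overlapped at each age. With the 3 most abundant hairpins left out of the total they no longer did at day 5, where the shares were 0.231 to 0.233% in DMSO and 0.217 to 0.223% in rotenone.

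Change was tested for hairpins with enough reads in at least 1 group (edgeR's filter with a minimum count of 10), which kept 181 of the 250. These included 53 of the 110 later measurements and 127 of the 139 other hairpins. A hairpin near the limit of this filter can pass it only through the groups where it is high. Its ratios and p-values are then not independent of the filter. A hairpin was called at an adjusted p under 0.05 over all 181 in edgeR's quasi-likelihood test (Benjamini-Hochberg adjustment), and log2 fold changes are given with their standard errors (SE). The 57 rows that were not tested held 1.14% of the later hairpins' reads.

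Age changed most of the tested later hairpins, in both directions. In DMSO, 18 rose and 16 fell from day 5 to day 15, 34 of 53, where 80.1% of all 181 hairpins were called (38.1% higher and 42% lower). In rotenone, 15 rose and 14 fell, 29 of 53, where 75.1% of all were called (37.6% higher and 37.6% lower). The median log2 change of the 53 was 0.16 in DMSO and 0.01 in rotenone, beside -0.02 and 0.01 over all 181. Called changes of more than 1 on the log2 scale were found for 20 of the 53 in DMSO, beside 36.5% of all 181, and for 13 in rotenone, beside 28.7%. Over the same step all 8 hairpins of the miR-35 family rose in both treatments, and of 7 markers of muscle, intestine, neurons, glia and gonad sheath 1 rose and 6 fell; the part of such tissue shifts in the later hairpins' changes was not tested.

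In DMSO the median SE of an age change was 0.218 for the 53 later hairpins and 0.0836 for the 127 others. Within a range of level the errors lay closer, and a smaller share of the later hairpins was called in each range, a difference that was not tested. Under 10 CPM, 22 of 35 later and 13 of 15 other hairpins were called, with median SEs of 0.300 and 0.272. Between 10 and 100 CPM the calls were 10 of 14 and 19 of 22, with SEs of 0.153 and 0.136. From 100 CPM upwards they were 2 of 4 and 79 of 90, with SEs of 0.0756 and 0.0750.

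The abundant hairpins moved with small error. The most abundant, mir-1022 (X:6435425-6435512, minus strand, outside protein-coding genes; coordinates here and below are those of the WBcel235 annotation), stood at 218, 231 and 232 CPM in day 5 DMSO and at 350, 339 and 362 in day 15 DMSO. In rotenone it stood at 211, 209 and 202 CPM at day 5 and at 346, 379 and 375 at day 15. Every day 15 library lay above every day 5 library. The rise was 1.54-fold in DMSO (log2 0.62 ± 0.07, adjusted p = 4.05e-09, edgeR quasi-likelihood test) and 1.77-fold in rotenone (0.82 ± 0.07, adjusted p 2.15e-11).

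The reverse was seen for mir-4813, which is annotated in an exon of idhg-1, the gene of a subunit of mitochondrial isocitrate dehydrogenase (III:4571640-4571716). Its levels were 155, 164 and 169 CPM in day 5 DMSO, 171, 174 and 184 in day 5 rotenone, 74.1, 78.7 and 71.4 in day 15 DMSO and 73.2, 70.3 and 75.6 in day 15 rotenone. The ages did not overlap, and the treatments did at day 15. It fell 2.17-fold in DMSO (log2 -1.12 ± 0.08, adjusted p = 8.45e-13, edgeR quasi-likelihood test) and 2.41-fold in rotenone (-1.27 ± 0.08, adjusted p 8.90e-14). Reads of the host messenger RNA and of the hairpin cannot be told apart there.

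The other abundant measurements changed little with age. Levels of mir-1820 were 123 ± 15.4, 119 ± 10.7, 126 ± 15.1 and 127 ± 9.07 CPM in day 5 DMSO, day 5 rotenone, day 15 DMSO and day 15 rotenone (SD, n = 3), with age changes of 0.03 ± 0.10 and 0.09 ± 0.10. The mir-5592 pair lies on opposite strands of 1 place in an intron of aakb-1, a regulatory subunit of AMP-activated kinase (X:13759245-13759308 and X:13759247-13759310), and the strand used for counting is not given. In DMSO mir-5592-1 changed by -0.03 ± 0.07 with age. In rotenone it rose by 0.18 ± 0.07 (adjusted p = 0.0274, edgeR quasi-likelihood test), a call that ended in 4 alternatives, with values of 0.08 to 0.15. It also ended without day 5 rotenone replicate 1 (0.17, adjusted p = 0.0778) or 3 (0.15, adjusted p 0.0894), or day 15 rotenone replicate 1 (0.15, adjusted p 0.0631) or 3 (0.14, adjusted p 0.0578).

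Among hairpins between 10 and 100 CPM, mir-1830, in an intron of the purine synthesis gene paic-1, fell most in DMSO together with mir-1817, a hairpin outside protein-coding genes. Levels of mir-1830 were 41.2, 39.5 and 34.4 CPM in day 5 DMSO, 34.0, 30.7 and 31.5 in day 5 rotenone, 14.3, 14.4 and 16.0 in day 15 DMSO and 15.5, 13.8 and 13.8 in day 15 rotenone. Every day 15 library lay below every day 5 library. The fall was 2.59-fold in DMSO (log2 -1.37 ± 0.12, adjusted p = 1.04e-10, edgeR quasi-likelihood test) and 2.22-fold in rotenone (-1.15 ± 0.13, adjusted p 8.47e-09). That of mir-1817 was from 20.6 ± 2.08 to 8.04 ± 1.02 CPM in DMSO (-1.37 ± 0.16) and from 16.3 ± 1.69 to 8.55 ± 0.437 in rotenone (-0.93 ± 0.16; SD, n = 3).

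In the same range mir-8201, in an intron of the linker histone gene hil-2, rose from 8.80 ± 0.618 to 17.7 ± 0.973 CPM in DMSO (log2 1.0 ± 0.15) and from 9.58 ± 1.3 to 18.1 ± 2.39 in rotenone (0.92 ± 0.15). A smaller rise was that of mir-1832a, in an intron of the splicing factor gene rsp-8, by 0.30 ± 0.11 in DMSO and 0.54 ± 0.11 in rotenone. The DMSO call of mir-1832a ended without day 5 DMSO replicate 1 (0.26, adjusted p = 0.0653, edgeR quasi-likelihood test) or day 15 DMSO replicate 2 (0.24, adjusted p 0.0659). Falls in both treatments were found for mir-8199 (-0.98 ± 0.15 and -1.47 ± 0.16), mir-8196a (-0.90 ± 0.17 and -0.65 ± 0.17), mir-4816 (-0.57 ± 0.11 and -0.30 ± 0.11) and mir-5551 (-0.56 ± 0.15 and -0.39 ± 0.16). In rotenone the fall of mir-4816 was not called without day 5 rotenone replicate 2 (-0.24, adjusted p 0.0821), nor that of mir-5551 without that library (-0.32, adjusted p 0.0932) or day 15 rotenone replicate 1 (-0.31, adjusted p 0.133).

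Of the remaining ones of the 15 most abundant later hairpins, 2 were called in neither treatment. Age changes of mir-1822 were -0.17 ± 0.13 and -0.18 ± 0.13 in DMSO and rotenone, and those of mir-5552 were 0.14 ± 0.16 and 0.01 ± 0.16. The fall of mir-2212 in DMSO (-0.29 ± 0.13, adjusted p = 0.0479, edgeR quasi-likelihood test) was lost in 7 of 12 fits that each left out 1 library, with adjusted p up to 0.220. The log2 change of mir-1821 in rotenone was -0.57 ± 0.16 (adjusted p = 0.00197, same test), a call that held in every fit over both lanes, while its change in DMSO was -0.17 ± 0.15.

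**Figure D2:**
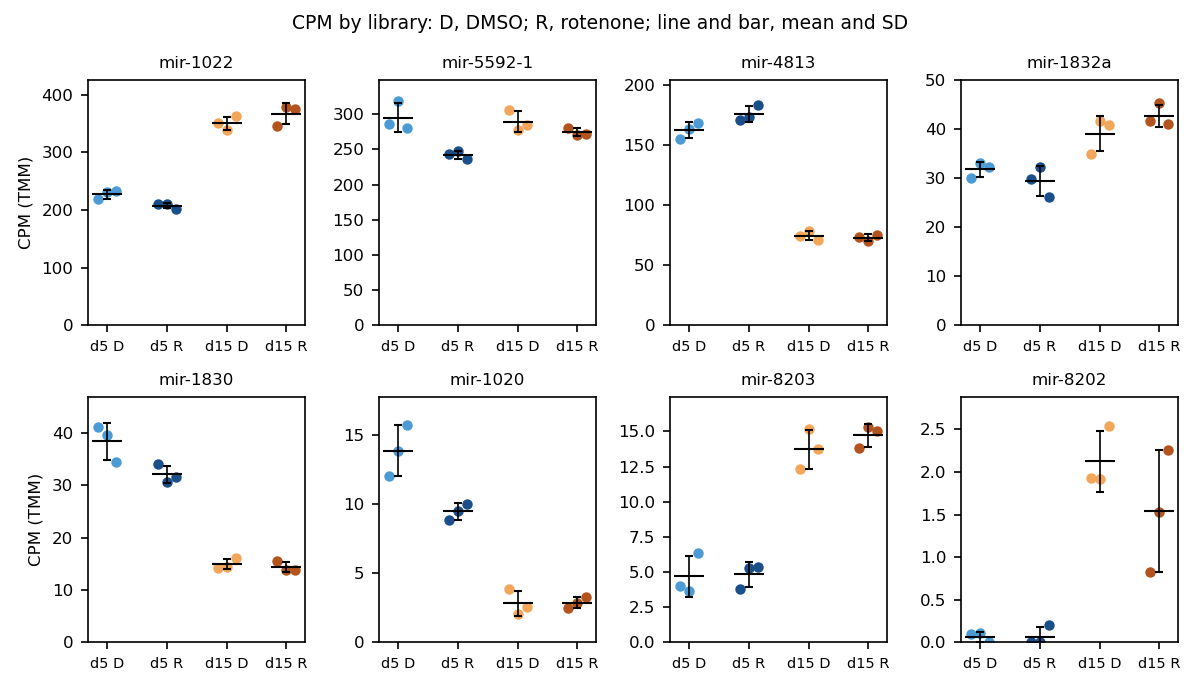
CPM of 8 later hairpins in each of the 12 libraries, in panels with axes from 0; points are libraries, the line is the group mean and the bar 1 SD, with d5 and d15 for the days, D for DMSO and R for rotenone. The day 15 libraries of mir-1022, mir-8203 and mir-8202 lie above all day 5 libraries, and those of mir-4813, mir-1830 and mir-1020 lie below.

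The largest age changes belonged to hairpins of low level. From day 5 to day 15, mir-8202, in an intron of the cation channel gene unc-77, went from near absence to a low level: its counts were 1, 1 and 0 in day 5 DMSO, 0, 0 and 2 in day 5 rotenone, 12, 11 and 12 in day 15 DMSO and 5, 7 and 9 in day 15 rotenone. Scaled by the reads sequenced, day 15 exceeded day 5 by 30.9 times in DMSO (35 against 2 reads; 95% counting interval 7.93 to 265) and by 21.4 times in rotenone (21 against 2 reads; 5.22 to 188). The fitted log2 changes, which depend on the prior count, were 4.58 ± 0.65 (adjusted p = 3.83e-07, edgeR quasi-likelihood test) and 4.13 ± 0.73 (1.05e-05). It passed the filter on reads only through its day 15 libraries, where it was high. These ratios and p-values are thus not independent of the filter.

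Low counts also carried the largest fall in DMSO, that of mir-4806, in an intron of the Ras-related gene ras-1. Its counts were 17, 11 and 15 in day 5 DMSO, 23, 23 and 19 in day 5 rotenone, 1, 1 and 0 in day 15 DMSO and 5, 6 and 1 in day 15 rotenone. In DMSO, day 5 exceeded day 15 by 12.2 times (43 against 2 reads; 95% counting interval 3.18 to 104; fitted log2 change -3.51 ± 0.67, adjusted p = 3.19e-05, edgeR quasi-likelihood test). In rotenone the excess was 2.66 times (65 against 12 reads; 1.43 to 5.42; -1.38 ± 0.41, 0.00388). A similar fall in both treatments was that of mir-1818, which had 63 and 7 reads in DMSO and 78 and 7 in rotenone at day 5 and day 15 (-2.38 ± 0.45 and -2.39 ± 0.44). Both hairpins passed the filter on reads only through their day 5 libraries, where they were high. The ratios and p-values of their falls are thus not independent of the filter.

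Between these and the abundant hairpins lay mir-8203, which rose about as much in both treatments. Its levels were 4.04, 3.68 and 6.39 CPM in day 5 DMSO, 3.80, 5.32 and 5.37 in day 5 rotenone, 12.3, 15.1 and 13.7 in day 15 DMSO and 13.8, 15.3 and 15.0 in day 15 rotenone. The ages did not overlap. The rise was 2.96-fold (log2 1.56 ± 0.20, adjusted p = 5.31e-08, edgeR quasi-likelihood test) and 3.06-fold (1.61 ± 0.20, adjusted p 2.95e-08). This hairpin (X:7882764-7882824, minus strand) lies within mir-786 (X:7882751-7882840, plus strand), and its counts were 3.69 to 9.17% of those of mir-786 in every library. The log2 rise of mir-786 itself was 1.51 ± 0.10 in DMSO and 1.74 ± 0.10 in rotenone, so without strand the reads of the pair cannot be told apart.

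Other rises of low hairpins in both treatments were those of mir-2221 (log2 1.59 ± 0.30 in DMSO and 1.85 ± 0.34 in rotenone), mir-8198 (1.42 ± 0.34 and 1.20 ± 0.34), mir-4929 (1.07 ± 0.22 and 1.27 ± 0.22), mir-5545 in an intron of the ER chaperone gene dnj-27 (0.80 ± 0.20 and 0.95 ± 0.20), mir-4805 (0.78 ± 0.21 and 0.63 ± 0.20) and mir-5594 (0.66 ± 0.18 and 0.65 ± 0.17). Weaker ones were those of mir-8212 (0.84 ± 0.30 and 0.69 ± 0.31) and mir-4936 (0.41 ± 0.18 and 0.57 ± 0.19). Reads of mir-2221 in DMSO and rotenone numbered 36 and 27 at day 5, and 65 and 48 in the smaller day 15 libraries. The filter favoured mir-2221 through its day 15 libraries, so the ratios and p-values of its rise are not independent of the filter. Falls in both treatments were those of mir-2210, in an exon of ZK593.2 (-1.56 ± 0.21 and -1.48 ± 0.23), and mir-2216 (-1.09 ± 0.28 and -0.79 ± 0.28). Reads of the host messenger RNA and of mir-2210 cannot be told apart.

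Calls in DMSO that were not made in rotenone were the rises of mir-5593-1 (1.01 ± 0.38), mir-5593-2 (1.07 ± 0.36), mir-4809 (0.94 ± 0.21) and mir-4923b (0.78 ± 0.36), and the falls of mir-1819 (-1.27 ± 0.59), mir-1828 in an intron of pash-1, the gene of Drosha's partner (-1.12 ± 0.43, but 0.0047 within lane L007), mir-4937 (-1.03 ± 0.19) and mir-2212. In rotenone alone the calls were mir-5592-1, mir-1821 and mir-8196b (-1.24 ± 0.55). No later hairpin was called for the difference between these changes, as given with the interaction below. Several of these calls rested on few reads. At day 5 and day 15 in DMSO, mir-5593-1 had 23 and 28 reads, mir-5593-2 26 and 33, mir-4923b 29 and 30, and mir-1819 33 and 8. In rotenone mir-8196b had 59 and 12. The day 15 libraries were smaller. So close to the limit of the filter, the ratios and p-values of these 5 hairpins are not independent of it.

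Some of these calls rested on single libraries. The rise of mir-5593-1 was not called without day 15 DMSO replicate 1 (0.98, adjusted p = 0.0504, edgeR quasi-likelihood test) or 2 (0.90, adjusted p 0.0713), nor that of mir-5593-2 without day 5 DMSO replicate 1 (0.84, adjusted p 0.0507). That of mir-8212 in DMSO was lost without day 15 DMSO replicate 2 (0.71, adjusted p 0.0774) or 3 (0.71, adjusted p 0.0713), and that of mir-8198 in rotenone without day 15 rotenone replicate 3 (0.81, adjusted p 0.0588). In rotenone mir-4936 lost its call without day 15 rotenone replicate 2 (0.49, adjusted p 0.0543). Fits that each left out 1 of the 12 libraries lost mir-1819 and mir-1828 in 5, mir-4923b in 7 and mir-4936 in 4 in DMSO, and mir-8212 in 8 and mir-8196b in 7 in rotenone. Over all alternatives other than single lanes and all such fits, 25 of the 34 calls in DMSO held (12 rises, 13 falls) and 22 of the 29 in rotenone (11 rises, 11 falls). Within lane L006 the sign was kept by 34 of 34 DMSO calls and 29 of 29 rotenone calls. Within lane L007 it was kept by 32 of the 33 and 29 of the 29 that could be fitted. Each lane had a single library per treatment at 1 of the ages.

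The age changes in DMSO and in rotenone, which share no library, ran alike. Across the 53 hairpins their log2 changes gave Pearson's r of 0.918 and Spearman's rho of 0.915, as a description across hairpins that share the depth and lanes of their libraries. The sign was the same for 47 of 53. Both treatments called 26, all 26 in the same direction, 8 were called in DMSO alone, 3 in rotenone alone and 16 in neither.

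**Figure D3:**
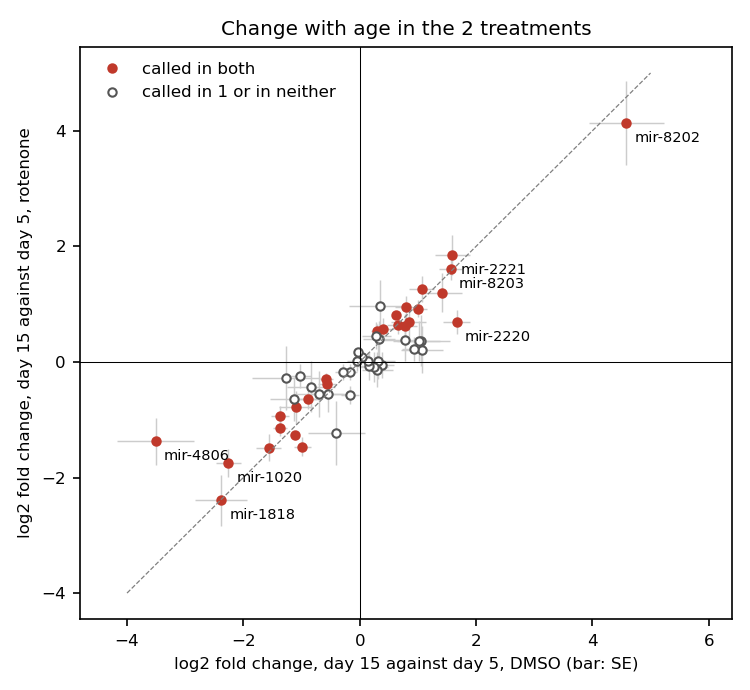
Log2 change from day 5 to day 15 in DMSO (horizontal axis) and in rotenone (vertical axis) for the 53 tested later hairpins, with bars for the SE, filled where the change was called in both treatments; the dashed line marks equal change. The 26 called in both changed in the same direction in both.

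Averaged over both treatments, age changed 39 of the 53, 20 higher and 19 lower, where 85.1% of all 181 were called (42% higher and 43.1% lower). Those called in neither treatment alone were mir-4808 (0.71 ± 0.33, adjusted p = 0.0494, edgeR quasi-likelihood test), mir-1823 (0.37 ± 0.17, adjusted p 0.0494), mir-4811 (-0.54 ± 0.22, adjusted p 0.0227) and mir-2219 (-0.63 ± 0.28, adjusted p 0.0441). Over all alternatives other than single lanes and all fits without 1 library, 31 of the 39 average calls held (16 rises, 15 falls).

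Rotenone changed few later hairpins at day 5. Calls were made for 4 of 53, 1 higher and 3 lower, where 25.4% of all 181 hairpins were called (6.08% higher and 19.3% lower). Of the 127 other hairpins 41 were called, and the median SE was 0.0822 for these against 0.210 for the later ones. At an unadjusted p under 0.05 the number was 8 of 53, beside 39.8% of all 181. The median log2 change was 0.05, beside -0.04 over all 181. Leaving out the 3 most abundant hairpins before scaling moved the median of all from -0.04 to 0.08, so small falls after rotenone depend on the scaling. Among the markers, 3 of the 8 miR-35 hairpins were higher after rotenone at day 5 and 2 of the 7 tissue markers were lower, and the miR-35 share of the reads did not overlap between the treatments; the part of this in the later hairpins' changes was not tested.

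The rise was that of mir-2220 (X:1873827-1873884, plus strand), at 1.79, 2.60 and 3.93 CPM in day 5 DMSO and 4.95, 6.54 and 5.87 in day 5 rotenone. At day 15 it stood at 8.34, 8.01 and 9.50 CPM in DMSO and 9.21, 9.64 and 9.02 in rotenone. The groups did not overlap at day 5 and did at day 15, and all day 15 libraries lay above all day 5 libraries. At day 5 rotenone was 2.13-fold higher (log2 1.09 ± 0.23, adjusted p = 0.000902, edgeR quasi-likelihood test), with 1.43 within lane L006 and 0.61 within lane L007. Lane L007 held a single library of each treatment at day 5. At day 15 the difference was 0.12 ± 0.21. The call at day 5 held in the 9 alternatives over both lanes that tested it and in all 12 fits without 1 library.

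The 3 falls were smaller and less secure. The mirtron mir-1020 stood at 12.0, 13.9 and 15.7 CPM in day 5 DMSO and at 8.85, 9.53 and 10.03 in day 5 rotenone, without overlap, a 1.46-fold fall (log2 -0.54 ± 0.15, adjusted p = 0.00761, edgeR quasi-likelihood test; -0.44 and -0.61 within lanes L006 and L007). Its call ended without day 5 rotenone replicate 1 (-0.49, adjusted p 0.0551). Levels of mir-4937 were 13.0, 16.5 and 13.0 CPM against 9.998, 8.98 and 9.42, also without overlap (1.49-fold; -0.58 ± 0.16; 0.00827; -0.57 and -0.43 within the lanes), and the call ended without day 5 DMSO replicate 2 (-0.45, adjusted p 0.0777). Both calls also ended under a filter of 10 CPM in 3 libraries, with -0.36 and -0.39 and an adjusted p of 0.0551 each.

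The last fall, of mir-5592-1, was from 287, 319 and 280 CPM to 243, 248 and 237, again without overlap. It was 1.22-fold (log2 -0.28 ± 0.07, adjusted p = 0.00322, edgeR quasi-likelihood test; -0.25 and -0.21 within lanes L006 and L007). The partner row mir-5592-2 gave -0.32 ± 0.07 (0.0012). Under 4 other scalings or filters it was between -0.20 and -0.10 and was not called: library size alone (-0.20, adjusted p 0.0710), the 3 most abundant hairpins left out (-0.16, adjusted p 0.111), no filter (-0.20, adjusted p 0.0626) and the filter of 10 CPM (-0.10, adjusted p 0.246).

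**Figure D4:**
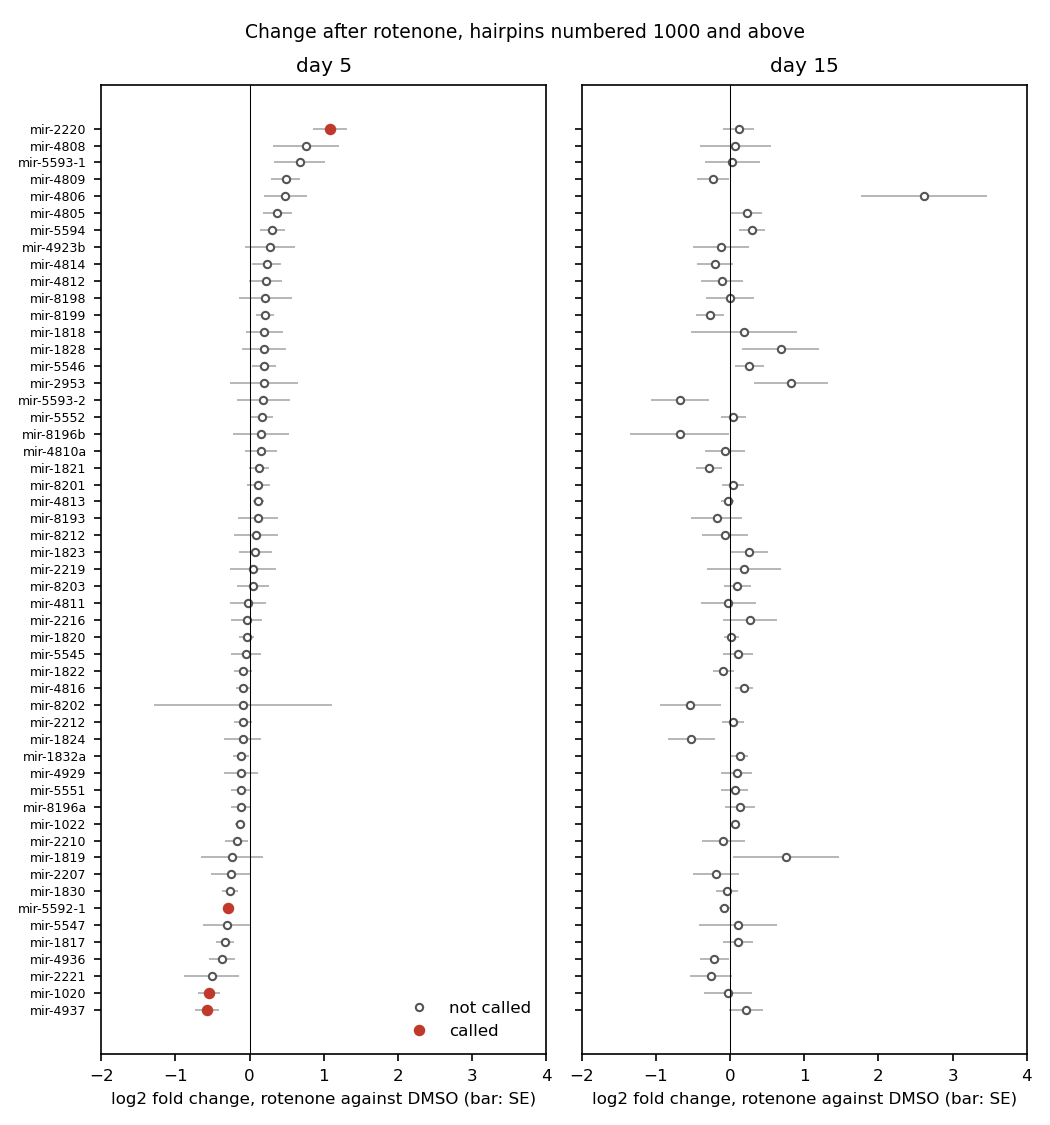
Log2 change after rotenone for the 53 tested later hairpins, 1 row each in the order of day 5, at day 5 (left) and day 15 (right), with bars for the SE and filled points for calls. At day 5 the 4 filled points are mir-2220 at 1.09 and mir-5592-1, mir-1020 and mir-4937 at -0.28, -0.54 and -0.58; at day 15 none is filled.

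At day 15 no later hairpin was called after rotenone, nor was any of the 181 (0%). At an unadjusted p under 0.05, edgeR's quasi-likelihood test gave 1 of 53, beside 1.66% of all 181, and DESeq2 and limma-voom each called 0. The lowest p-values belonged to mir-4806 (12 against 2 reads, a ratio of 6.79 with a 95% counting interval of 1.51 to 62.5, adjusted p = 0.882), mir-5593-2 (log2 -0.68 ± 0.39, adjusted p 0.968) and mir-5594 (0.30 ± 0.18, adjusted p 0.968). The hairpins that had fallen at day 5 differed by -0.03 ± 0.32 (mir-1020), 0.22 ± 0.23 (mir-4937) and -0.08 ± 0.07 (mir-5592-1).

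The interaction asked whether the rotenone effect differed between the ages, and it called none of the 53, where 6.63% of all 181 were called (4.97% higher and 1.66% lower). Unadjusted p-values under 0.05 numbered 5 of 53, beside 24.9% of all 181, and DESeq2 and limma-voom each called 1. The lowest p-values were those of mir-2220 (log2 -0.97 ± 0.31, adjusted p = 0.0514, edgeR quasi-likelihood test), mir-4937 (0.79 ± 0.28, adjusted p 0.0768) and mir-4809 (-0.71 ± 0.29, adjusted p 0.132). For mir-2220 the difference was called in 6 of 8 alternatives, with values of -1.11 to -0.96, and without day 5 DMSO replicate 3 (-1.29, adjusted p 0.0107) or day 5 rotenone replicate 1 (-1.09, adjusted p 0.0421); within lanes it was -1.17 and -0.53. That of mir-4937 was called with a lane term (0.78, adjusted p 0.0443) and without day 15 rotenone replicate 2 (0.96, adjusted p 0.0253).

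Averaged over both ages, rotenone changed 3 of 53, 2 higher and 1 lower, where 12.2% of all 181 were called (2.76% higher and 9.39% lower). These were mir-2220 (0.60 ± 0.16, adjusted p = 0.0138, edgeR quasi-likelihood test), mir-4806 (1.55 ± 0.45, adjusted p 0.0211) and mir-5592-1 (-0.18 ± 0.05, adjusted p 0.0207). None held throughout. The rise of mir-2220 lost its call without day 5 DMSO replicate 1 (0.47, adjusted p 0.0526). That of mir-4806 did so without day 15 DMSO replicate 1 (1.72, adjusted p 0.0579) or 3 (1.36, adjusted p 0.0621) or day 15 rotenone replicate 2 (1.36, adjusted p 0.0925). The fall of mir-5592-1 did so without day 15 DMSO replicate 1 (-0.13, adjusted p 0.0824) or day 15 rotenone replicate 2 (-0.14, adjusted p 0.0529).

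Position in the genome was the feature these hairpins could be compared by. The WBcel235 annotation placed 109 of the 111: 55 outside protein-coding genes, 36 in an intron on the host's strand, 12 in an intron on the other strand, 4 in an exon on the same strand and 2 in an exon on the other. Age, averaged over treatments, raised 12 and lowered 10 of 27 tested hairpins outside genes, and raised 7 and lowered 6 of 20 in same-strand introns, where 42% of all 181 were called higher and 43.1% lower. Of the 3 tested in introns on the other strand, 1 fell and 2 were not called. Both tested hairpins in same-strand exons, mir-4813 and mir-2210, fell, and their reads cannot be told from those of the host messenger RNA.

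Hairpins that span a whole intron, as mirtrons do, numbered 7. With their reads in all libraries, they were mir-1019 in the ciliary kinase gene dyf-5 (11 reads), mir-1020 in T16G12.1 (758), mir-4816 in T09B4.2 (2946), mir-4920 in sph-1 (45), mir-4924 in T11G6.5 (7), mir-4926 in ari-1.3 (56) and mir-4927 in M01F1.4 (0). Only mir-1020 and mir-4816 had enough reads to be tested, and both fell with age. In day 15 DMSO mir-1020 was at 3.85, 2.09 and 2.53 CPM and in day 15 rotenone at 2.47, 2.85 and 3.26, below all day 5 libraries. The fall was 4.79-fold in DMSO (log2 -2.26 ± 0.21, adjusted p = 2.49e-10, edgeR quasi-likelihood test) and 3.35-fold in rotenone (-1.75 ± 0.24, adjusted p 2.22e-07). Within lanes L006 and L007 it was -1.72 and -2.78 in DMSO and -1.8 and -1.78 in rotenone. The mirtron mir-62, in ugt-50 and numbered below 1000, fell by 0.60 ± 0.10 and 0.57 ± 0.10 on the log2 scale.

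A run of 11 hairpins on the plus strand of X, over 7573 bases (X:1872466-1880038), held 9 of the later hairpins, chosen for description after their values were seen. In order they are mir-4808, mir-4809, mir-2220, mir-4810b, mir-4810a, mir-4925, mir-4923b, mir-4923a and mir-4921, with mir-4807 and mir-1018, which are not among the 111, between or beside them. Their summed level was 12.5 ± 0.996 CPM in day 5 DMSO, 18.8 ± 0.503 in day 5 rotenone, 25.4 ± 1.33 in day 15 DMSO and 24.7 ± 0.604 in day 15 rotenone (SD, n = 3). Day 5 rotenone lay between day 5 DMSO and both day 15 groups in every library. It did so with library size alone and without the 3 most abundant hairpins. The sum includes mir-2220, which had the same order by itself, with 1.79 to 3.93 CPM in day 5 DMSO and 4.95 to 6.54 in day 5 rotenone. At day 15 mir-2220 stood at 8.01 to 9.50 CPM in DMSO and 9.02 to 9.64 in rotenone. The order of the sum is thus not independent of the choice of the run. Whether the run changes as a unit was not tested by it.

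Calls differed among its 5 tested members, and whether their changes differed from each other was not tested. At day 5 the log2 changes after rotenone were 1.09 ± 0.23 for mir-2220, 0.76 ± 0.45 for mir-4808, 0.49 ± 0.20 for mir-4809, 0.28 ± 0.34 for mir-4923b and 0.15 ± 0.21 for mir-4810a, and of these mir-2220 alone was called. With age in DMSO mir-2220 (1.66 ± 0.23), mir-4809 (0.94 ± 0.21) and mir-4923b were called higher. Not called there were mir-4808 (1.06 ± 0.49, adjusted p = 0.0502, edgeR quasi-likelihood test) and mir-4810a (0.16 ± 0.24). In rotenone mir-2220 alone was called (0.69 ± 0.20). The neighbour mir-1018 was higher after rotenone at day 5 (0.47 ± 0.08, adjusted p = 0.000175, edgeR quasi-likelihood test), and mir-4807 had 0.48 ± 0.22 (0.108) there and 3.07 ± 0.17 with age in DMSO.

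**Figure D5:**
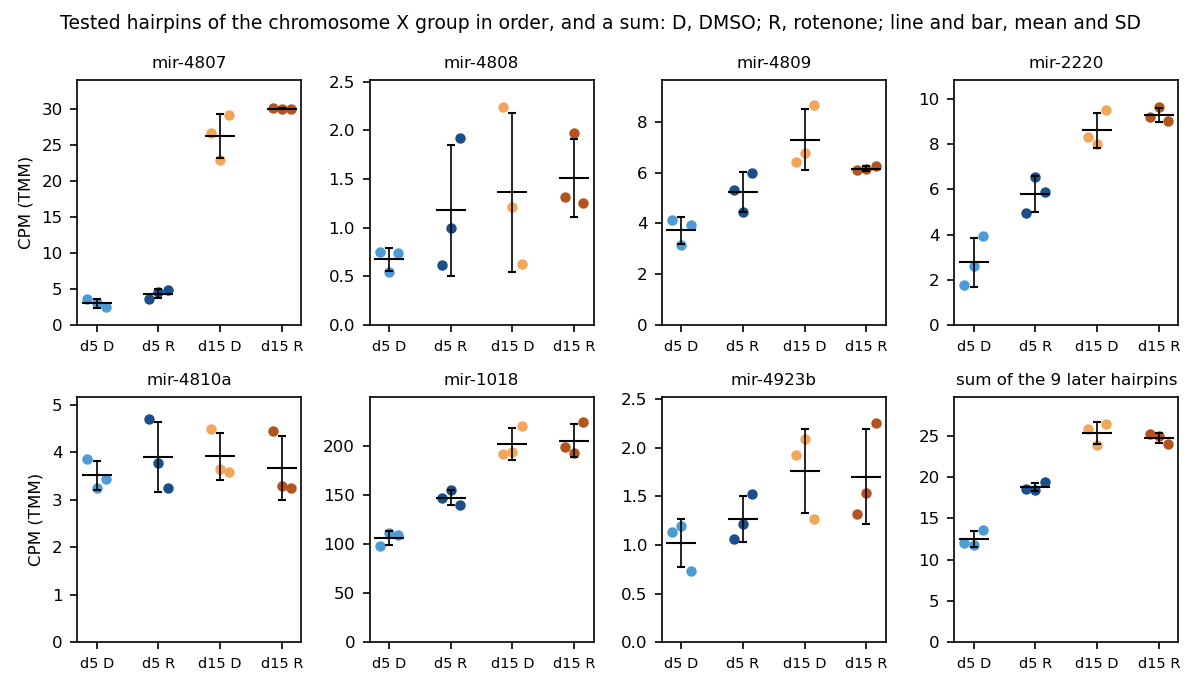
CPM in each of the 12 libraries for tested hairpins of the run on chromosome X and for the sum of its 9 later hairpins; points are libraries, the line is the group mean and the bar 1 SD. The sum rises from 12.5 CPM in day 5 DMSO to 18.8 in day 5 rotenone and to 25.4 and 24.7 at day 15.

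The 57 untested rows had few reads. Of these, 53 had a read, 36 had at least 10 reads over the 12 libraries, and 17 had 1 to 9. The most read were mir-8210 with 105 reads, mir-8189 with 99, mir-5550 with 96 and mir-4810b with 75. Together the untested rows stood at 16.5 ± 0.820 CPM in day 5 DMSO, 18.6 ± 0.748 in day 5 rotenone, 15.5 ± 0.835 in day 15 DMSO and 16.6 ± 0.354 in day 15 rotenone (SD, n = 3).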

How the data were processed

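The authors deposited raw read counts per hairpin for 12 libraries, with no normalization. Per the submitters' processing notes, the tools were SAMtools 1.3.1-9, BWA 0.7.12-r1039, Trimmomatic 0.36 and bcl2fastq 1.8.4. Not given in the sources used here are their roles, the build, the hairpin reference, the strand and the counting rule. Groups were taken from the labels; replicates were numbered in accession order, which pairs nothing.

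Counts were tested with edgeR 4.0.16 (R 4.3.3; quasi-likelihood F test, TMM, filterByExpr with a minimum count of 10) in 1 model of 4 group means, with Benjamini-Hochberg adjustment over 181 hairpins. The common biological coefficient of variation was 6.88%. Alternatives were RLE size factors, library size alone, the 3 most abundant hairpins left out, no filter, a filter of 10 CPM in 3 libraries, DESeq2 1.42.0, limma-voom (limma 3.58.1), a lane term, only the groups compared, single lanes, the mir-5592 rows summed, and leaving out each library. The scripts were tested on simulated counts.

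Named hairpins are the 15 most abundant tested ones, those called (up to 15 rises and 15 falls a comparison), the 3 lowest p-values where none was called, mirtrons, and the most read untested rows. Members, lists and rules were chosen with earlier results of these data known. Hairpins were placed on the WBcel235 annotation by name. Exact Poisson-based intervals of count ratios are at 95% and cover counting error only.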

Additional observations from a re-analysis of the deposited data

How the results depend on the processing

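No paired analysis was possible because the labels give no replicate numbers. Calls after rotenone at day 5 numbered 8 within lane L006 and 0 within lane L007, beside 4; with library size alone, the 3 most abundant hairpins left out or no filter, they were 3 higher and 2 lower. Under the filter of 10 CPM, which tests fewer hairpins, age calls were 16 in DMSO, 16 in rotenone and 17 on average, and average rotenone calls 1. Within lane L007, with fewer libraries, these were 22, 18 and, for rotenone on average, 0. DESeq2 made 1 call for average rotenone and gave mir-2220 and mir-4806 no adjusted p. The interaction had 1 call with library size alone, the 3 left out, no filter, DESeq2 or limma-voom, and 2 with a lane term. The cause was not tested. The age change of mir-1828 in DMSO was 0.0047 within lane L007, against -1.12. Leaving out 1 library gave 3 to 5 (rotenone, day 5), 0 to 0 (day 15), 27 to 35 (age, DMSO), 26 to 33 (age, rotenone), 0 to 1 (interaction), 1 to 3 (average rotenone) and 36 to 42 (average age) calls. With at least 10 reads, 52.7, 53.3, 44.7 and 41 rows were detected in day 5 DMSO, day 5 rotenone, day 15 DMSO and day 15 rotenone. Without the 3 most abundant hairpins in the total, the shares were 0.232, 0.220, 0.234 and 0.229%. The SE was widest below 10 CPM; the part of depth in this was not tested.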
